A study of Monopterus albus with 3 samples.

Results

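Tandem pairs are neighboring loci that lie head to tail on 1 strand of *Monopterus* scaffolds, with less than 5 kb between them. Each locus stands for 1 gene identifier given by Cufflinks and is described by whichever of its transcripts had the most exon bases in sum. It was kept when it had at least 2 coding segments and a CDS of at least 300 bp. Members were adjacent kept loci on the same strand that did not overlap. Of 12313 adjacent pairs of 13305 kept loci, 2064 (16.8%) were tandem pairs, and these pairs held 3670 loci on 393 scaffolds. The plus strand carried 1104 of the pairs and the minus strand 960. Poly(A) RNA, isolated with oligo(dT) beads, was sequenced from ovary of a female, ovotestis of an intersex (labelled Hermaphrodite) and testis of a male swamp eel, as 1 library per gonad with no replicates. The sources used here do not state how many fish stand behind a library, their age or strain, or the number of reads. The 3 libraries come as a single annotation with 1 coverage value per transcript, so no comparison between the gonads was possible. The sources used here do not state whether the libraries were pooled before assembly, so the share of each gonad in a coverage value is unknown.

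Head-to-tail neighbors can arise in several known ways. A gene can be copied next to itself, and such tandem copies often keep the number and the lengths of the coding exons, since splice sites change slowly. Unrelated genes can also lie close together in a compact genome. In models assembled from short reads, a single gene can appear as several neighboring models where reads do not connect its exons. Members are described here by position, because 0 of the identifiers matched the RefSeq gene table of the species, and no gonad marker gene could be read. No sequence is printed, since no sequence of these scaffolds was used here. Upstream and downstream refer to the direction of transcription, and coverage is the mean read depth per base that Cufflinks gave the representative transcript. In whole gonads, the number of cells that express a gene and its RNA per cell cannot be told apart in this value. The deposited models are trimmed to the ORF, so positions are those of the coding part and a gap also holds the UTRs between the reading frames. Strand comes from the assembled models, as no strand-marking step is named for the libraries, and for spliced models an assembler reads it from the splice sites.

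Close neighbors lay mostly on the same strand. Under 5 kb, 2064 of 3191 non-overlapping pairs (64.7%, Wilson 95% interval 63.0% to 66.3%) shared a strand, while 553 pairs were divergent and 574 convergent. At 5 to 50 kb the same-strand share was 57.7% of 6614 pairs, 6.94 percentage points lower (Newcombe interval 4.89 to 8.97), and over 50 kb it was 53.2% of 2411. The share was highest at the shortest gaps. Below 500 bp, 282 of 317 pairs (89.0%, interval 85.0% to 92.0%) lay on 1 strand, against 24 divergent and 11 convergent pairs. It was 65.6% from 500 bp to 1 kb, then 65.0%, 62.4% and 61.2% in the classes from 1 to 4 kb, and 56.2% (interval 51.9% to 60.3%) between 4 and 5 kb, near that of wider gaps. Without the pairs below 500 bp, 1782 of 2874 pairs under 5 kb (62.0%) shared a strand, still 4.26 points (2.12 to 6.39) above those at 5 to 50 kb. These intervals, like all others here, cover counting error only, and pairs that share a locus are not independent.

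**Figure D1:**
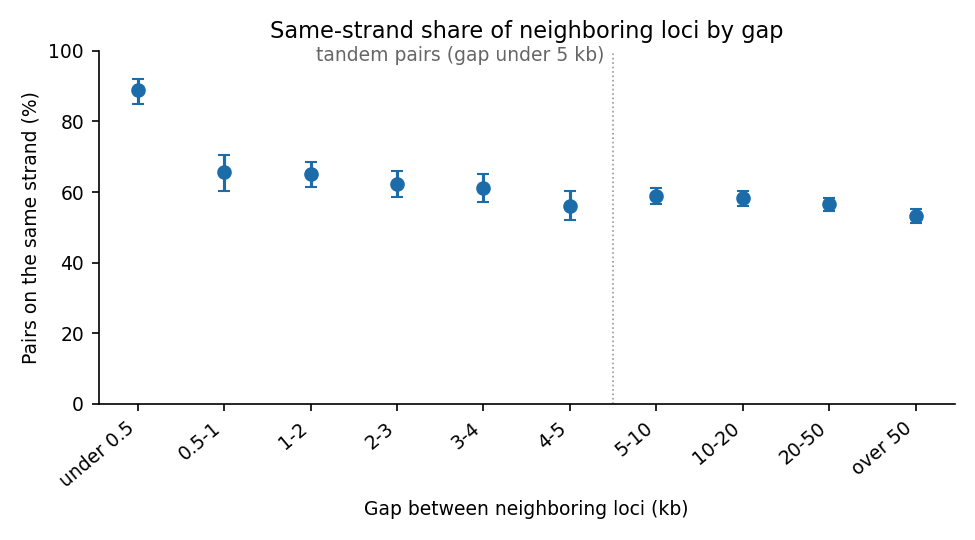
Share of non-overlapping neighboring loci on the same strand (%) by gap (kb), with points for all pairs of a gap class and bars for Wilson 95% intervals; the dotted line marks the 5-kb limit of tandem pairs. The share was 89.0% below 500 bp, between 56.2% and 65.6% in the other classes under 5 kb, and 53.2% over 50 kb.

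The gap between the members of a tandem pair ranged from 59 to 4997 bp with a median of 2144 bp. It was under 500 bp in 282 pairs, under 1 kb in 494 and under 2 kb in 959. The smallest gap, 59 bp on the minus strand of scaffold 3, separated a locus of 11 segments (4463730 to 4469068, coverage 405) from a downstream locus of 4 segments (4461933 to 4463670, coverage 783). Gaps of 64 bp were found on scaffold 30 (91570 to 93871 and 93936 to 95996), with coverages of 18.2 and 13.5, and on scaffold 550 (10847 to 23832 and 23897 to 81885), with coverages of 104 and 89.8. In each of these 3 pairs the members lay within 2-fold of each other. The largest gap, 4997 bp, lay on scaffold 64 between loci of 18 and 16 segments (1037100 to 1061910 and 990693 to 1032102, coverages 117 and 135). Just inside the limit too, gaps of 4993 bp were found on scaffold 136, where coverage was 4.52 upstream and 511 downstream, and on scaffold 355, where it was 280 and 72.8. Just outside it, the gaps were 5000 bp on scaffold 93, 5007 bp on scaffold 239 and 5009 bp on scaffold 69.

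Gaps were longer than a typical intron of the same loci and mostly within the range of their longest. The 32362 introns inside the tandem loci had a median of 308 bp and a 95th percentile of 3385 bp. In 1283 pairs (62.2%) the gap was no longer than the longest intron of its members, a share that was 60.4% for divergent and 53.5% for convergent pairs under 5 kb. Under 500 bp this held for 276 of 282 tandem pairs (97.9%), and likewise for 24 of 24 divergent and 10 of 11 convergent pairs. Gaps within the range of introns were thus common in all 3 arrangements.

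The tandem loci were close to the other kept loci in segments and CDS, shorter in span and lower in coverage. Their median was 7 segments and a CDS of 1116 bp, against 7 segments and 1158 bp in the 9635 kept loci of no tandem pair. The median span was 5584.5 bp against 6458 bp, and the mean number of transcripts per locus was 1.59 against 1.71. Pairs with shorter gaps had shorter models. Below 500 bp the median CDS was 964.5 bp upstream and 1023 bp downstream, with 6 segments each, and between 4 and 5 kb it was 1326 and 1122 bp with 8 segments each. Median coverage was 57.7 in tandem loci (lowest 1.19, highest 5411) and 89.5 in the others. A coverage under 20 was found at 37.5% of tandem loci and 27.0% of the others. The ORF was a whole multiple of 3 in 3660 of the 3670 loci and began in phase 0 in 3665, so nearly all members hold a whole number of codons in the deposited models.

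The scaffolds with the most tandem pairs held between 114 and 218 kept loci each. Scaffold 3 had 43 tandem pairs among 218 kept loci, scaffold 7 had 40 among 179, scaffold 6 had 36 among 185, scaffold 5 had 33 among 114 and scaffold 2 had 30 among 169. At the other end, 114 scaffolds carried a single pair. Other deposited loci lay wholly inside the gap of 339 pairs (16.4%), which was between the 9.95% of divergent and the 27.0% of convergent pairs. Of the 387 loci in tandem gaps, 369 had a single coding segment and 212 lay on the strand of the pair. The first count is largely built in. A locus of at least 2 segments and a CDS of at least 300 bp would be kept and would split the pair. Neither count was taken for loci in the gaps of other pairs, so they describe these gaps only.

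Tandem copies were looked for by the lengths of the coding segments, read in transcription order. A shared run was a stretch of at least 3 consecutive segments of equal length in both members, with at least 2 distinct lengths. It was found in 5 of the 2064 pairs (0.242%, Wilson interval 0.104% to 0.566%), against 0.221% of all 12216 non-overlapping adjacent pairs. Divergent pairs under 5 kb had 2 (0.362%), convergent pairs 0 of 574 (Wilson upper limit 0.665%), same-strand pairs at 5 to 50 kb 10 of 3819 (0.262%) and those over 50 kb 3 of 1283 (0.234%). The differences from tandem pairs were small, with intervals of -0.28 to 0.33 percentage points for 5 to 50 kb and -1.08 to 0.30 for divergent pairs. The share of tandem pairs with this sign was near the background, and copies whose segments had changed in length would be missed by it.

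The clearest pair of this kind lay on the plus strand of scaffold 385, from 19492 to 23596 and from 25640 to 35659, 2043 bp apart. Both members had 7 coding segments. In the upstream locus they measured 170, 163, 93, 141, 138, 120 and 192 bp, and in the downstream locus 173, 163, 93, 141, 138, 120 and 186 bp. The 5 inner segments were thus equal in length and only the first and the last differed, so that the ORFs were 1017 and 1014 bp long. Coverage was 344 upstream and 66.7 downstream, a log2 difference of -2.33. On the minus strand of scaffold 23, a locus of 6 segments (3216451 to 3218621) shared a run of 4, of 185, 162, 141 and 82 bp, with segments 18 to 21 of a locus of 22 segments downstream (3201769 to 3215041). Their coverages, 139 and 124, were within 2-fold.

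**Figure D2:**
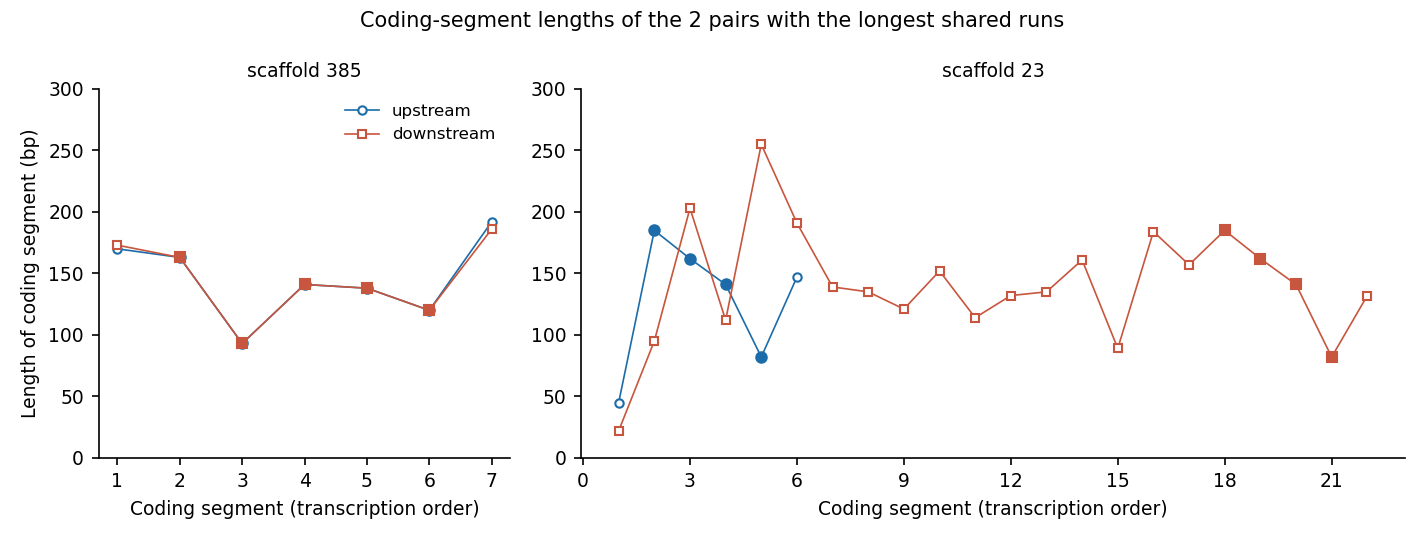
Length of each coding segment (bp) in transcription order for the upstream (circles) and downstream (squares) members on scaffolds 385 and 23, with filled symbols for the shared run. On scaffold 385 segments 2 to 6 of both members coincide, and on scaffold 23 segments 2 to 5 of the short member match segments 18 to 21 of the long one.

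The other shared runs were shorter. On the minus strand of scaffold 41, loci of 7 and 13 segments (4667053 to 4673634 and 4654643 to 4663754) shared 93, 111 and 124 bp, with coverages of 249 and 51.4. On scaffolds 105 and 143 the run was 54, 108 and 54 bp. Lengths that are multiples of 9, such as 45, 54 and 108 bp, are known from the exons of vertebrate fibrillar collagen genes, which encode whole repeats of 3 amino acids. Such lengths recur within a gene, so a run of them is a weaker sign of a copy, and no gene name could be given to these loci. The scaffold 105 pair (2050840 to 2056180 and 2058402 to 2063103) had coverages of 4.51 and 6.54, and the scaffold 143 pair (380396 to 391058 and 392211 to 399039) had 77.4 and 287. In the remaining pairs named for their runs, only 2 consecutive lengths were equal. They include scaffold 29, where loci of 4 segments each (1127455 to 1133006 and 1136952 to 1140304) had inner segments of 131 and 109 bp in both members and coverages of 57.7 and 91.0. On scaffold 129, loci at 2033785 to 2040195 and 2024472 to 2029295 shared 180 and 112 bp as segments 3 and 4 of each, with coverages of 408 and 29.5. Another pair on scaffold 129 (41274 to 49329 and 49873 to 50924) shared 118 and 267 bp, on scaffold 162 the lengths were 182 and 157 bp and on scaffold 198 they were 300 and 303 bp. The length of 267 bp recurred within the upstream locus of that scaffold 129 pair. Lengths of 300 and 303 bp recurred within the downstream locus on scaffold 198. Matches of these recurring lengths are therefore weaker signs too. With the requirement lowered to 2 equal lengths, the sign was found in 19 pairs (0.921%), against 0.838% at 5 to 50 kb.

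Pieces of 1 gene would be shown directly by a transcript that joins both members. No deposited transcript had coding segments in both members in any of the 2064 pairs. The result is largely built in. Cufflinks mostly places overlapping transcripts of a strand under a single identifier, so that a joined pair would mostly count as 1 locus. There were exceptions, as 42 adjacent same-strand pairs of kept loci overlapped under different identifiers. Trimming also leaves each transcript only 1 reading frame. Only 7 pairs had a same-strand transcript that spanned the gap at all. Whether members are pieces of 1 gene was therefore not tested directly, and the coverage of the members is described next.

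The coverage of tandem members lay closer together than that of other neighbors, most of all at short gaps. With both coverages at least 20, tandem pairs as a whole were close to divergent pairs, as given below. Across the 2064 pairs, 1040 (50.4%, Wilson interval 48.2% to 52.5%) had coverages within 2-fold on the scale of log2(coverage + 2), against 31.3% of all non-overlapping adjacent pairs. The share was 37.3% for divergent pairs and 29.3% for convergent pairs under 5 kb, 13.1 points (Newcombe interval 8.50 to 17.6) and 21.1 points (16.7 to 25.3) below tandem pairs. At 5 to 50 kb on the same strand it was 29.0%, 21.4 points lower (18.8 to 24.0). The median absolute log2 difference was 0.99 in tandem pairs, 1.37 in divergent, 2.03 in convergent and 1.96 in same-strand pairs at 5 to 50 kb. Across pairs, Pearson's r of log2 coverage was 0.55 (Spearman's rho 0.56, n = 2064), compared with 0.18, 0.10 and 0.15 in these other classes. Both members of a pair always lay on the same scaffold and under the same identifier prefix, which marks a group of scaffolds, so these could add to r. After centering on the scaffold median r was 0.50, and the 2-fold share does not change with such centering.

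Agreement fell steeply with the gap. Below 500 bp, 213 of 282 tandem pairs (75.5%, interval 70.2% to 80.2%) lay within 2-fold and r was 0.91. From 500 bp to 1 kb these values were 67.9% and 0.83, from 1 to 2 kb 55.1% and 0.64, and from 4 to 5 kb 35.0% and 0.30. In opposite-strand pairs r was 0.58 below 500 bp, over only 35 pairs, and Spearman's rho was 0.30. From 500 bp to 1 kb their r was 0.17, and 45.9% lay within 2-fold. Same-strand pairs at 10 to 20 kb had 27.5% within 2-fold and an r of 0.08.

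**Figure D3:**
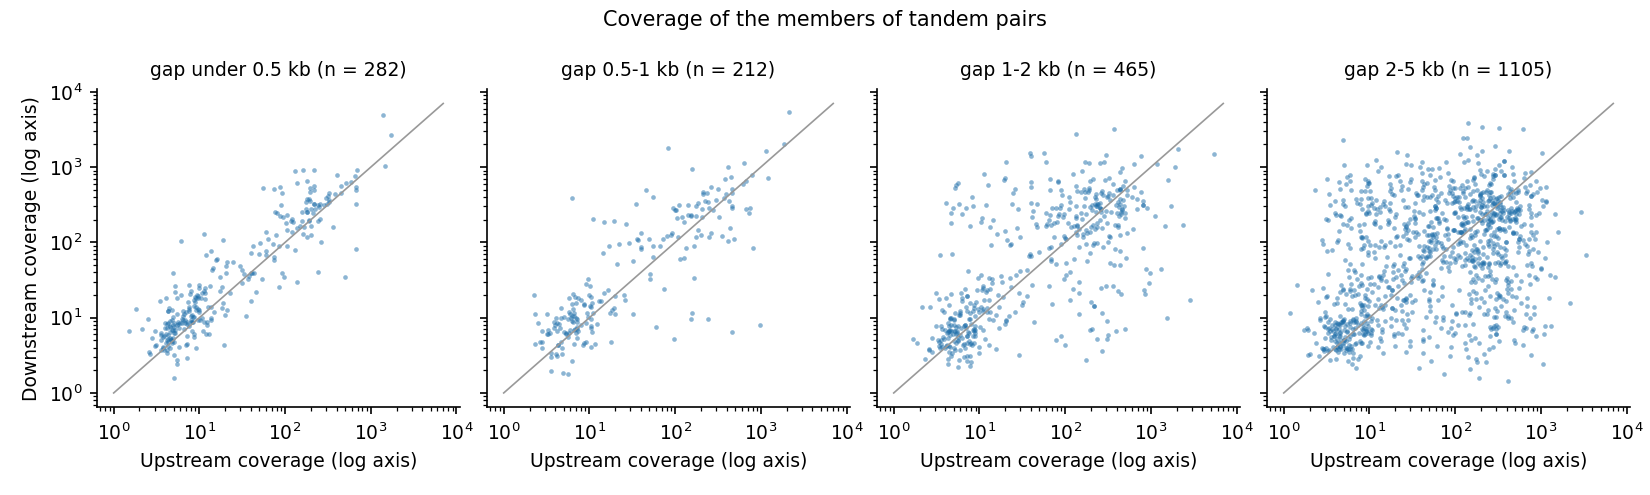
Coverage of the upstream (x axis) and downstream (y axis) member of each tandem pair, both on log axes, in 4 classes of gap; each point is a pair and the line marks equal coverage. Points follow the line below 1 kb and fall into a low and a high cloud, while beyond 1 kb many pairs join a low and a high member, and r falls from 0.91 below 500 bp to 0.64 between 1 and 2 kb.

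Many tandem pairs joined 2 weakly covered members. In 591 tandem pairs (28.6%, interval 26.7% to 30.6%) both coverages were under 20, against 2.35% of divergent, 6.97% of convergent and 11.7% of same-strand pairs at 5 to 50 kb. Such pairs mostly lay within 2-fold in every arrangement, and the limit of 20 and the added 2 leave them little room to differ. The share was 88.0% in tandem pairs, and 75.4% at 5 to 50 kb and 79.9% over 50 kb on the same strand. It was 61.5% in 13 divergent and 57.5% in 40 convergent pairs. Over these weakly covered pairs r was 0.33 in tandem pairs, 0.09 at 5 to 50 kb and 0.19 over 50 kb. In the divergent and convergent pairs r was -0.05 and -0.29. The reason for these differences between arrangements was not tested. Below 500 bp, both members were under 20 in 48.9% of pairs. Where the upstream member of such a close pair was under 20, the downstream member was too in 84.1% of 164 pairs, and where it was not, in 3.39% of 118 pairs. When both members had a coverage of at least 20, r over all tandem pairs was 0.20, close to the 0.18 of divergent pairs. It was -0.04 in convergent pairs and 0.06 at 5 to 50 kb. Of the 1041 tandem pairs, 45.6% lay within 2-fold, close to the 44.7% of divergent pairs. The share was 38.5% in convergent pairs and 36.4% at 5 to 50 kb. In these better covered tandem pairs agreement stayed high at short gaps only, with an r of 0.72 below 500 bp (114 pairs) and 0.61 from 500 bp to 1 kb (90 pairs). From 1 to 2 kb it was 0.16, near the 0.13 of opposite-strand pairs. Below 500 bp, 67.5% of them lay within 2-fold (58.5% to 75.4%), and 50% of 32 opposite-strand pairs did (33.6% to 66.4%), so these intervals overlap. In those 32 opposite-strand pairs r was 0.05.

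Among the best covered pairs, that on the plus strand of scaffold 218 (493411 to 495293 and 495890 to 497154) had 5 segments in each member and coverages of 2154 and 5357. On scaffold 1049, a locus at 5345 to 5948 with a coverage of 1883 lay 959 bp upstream of one at 501 to 4385 with 2020. On scaffold 13, loci at 3310055 to 3311179 and 3312301 to 3315226 had 2085 and 1751. The members of the last 2 pairs were thus within 2-fold, and those of the first were not.

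Wide differences between members were found too. More than 4-fold separated 591 tandem pairs (28.6%, interval 26.7% to 30.6%), against 35.4% of divergent and 50.5% of convergent pairs under 5 kb and 49.5% and 52.3% of same-strand pairs at 5 to 50 kb and over 50 kb. Pairs with both coverages under 20 had little room to differ that far on the scale used. They made up 28.6% of tandem pairs, against 2.35% of divergent, 6.97% of convergent and 11.7% of same-strand pairs at 5 to 50 kb. The shares over 4-fold and over 32-fold are therefore not like for like between classes. More than 32-fold separated 122 tandem pairs (5.91%, interval 4.97% to 7.01%), close to the 5.97% of divergent pairs and below the 11.5% of convergent pairs and the 10.6% at 5 to 50 kb. The largest was found on scaffold 29, where a locus at 3481618 to 3486206 had a coverage of 4.89 and its downstream neighbor at 3488400 to 3492501 one of 2307, a log2 difference of 8.39 across 2193 bp. On scaffold 67 the upstream locus (579795 to 587181) had 1061 and the downstream locus of 2 segments (573814 to 575461) 2.45. On scaffold 362, coverage was 2857 upstream (542333 to 549711) and 17.0 downstream (550969 to 581469). Neither direction prevailed at this end of the range, with the downstream member higher in 63 and the upstream member in 59 of the 122 pairs.

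The downstream member tended to have the higher coverage, and again mainly at short gaps. It was higher in 1218 of 2064 pairs (59.0%, interval 56.9% to 61.1%), against 51.7% of all 7166 non-overlapping same-strand pairs. The share was 74.1% below 500 bp (interval 68.7% to 78.9%), where the median log2 difference was 0.36, then 64.6% from 500 bp to 1 kb and 58.5% from 1 to 2 kb. From 2 to 5 kb it lay between 53.4% and 55.7%, like the 55.2% of the next class outside the limit, 5 to 10 kb. At 5 to 50 kb it was 50.5% and over 50 kb 43.9%, which is 8.55 (5.89 to 11.2) and 15.1 (11.7 to 18.5) points below tandem pairs. Opposite-strand pairs have no downstream member, so the second along the scaffold was counted, with 45.7% below 500 bp and 52.3% from 500 bp to 1 kb. The orientation of a scaffold is arbitrary, which puts these shares near 50% whatever the coverages. They are therefore no comparison for the direction in tandem pairs. With both members at a coverage of at least 20, the downstream member was higher in 70.2% of tandem pairs below 500 bp (61.2% to 77.8%).

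**Figure D4:**
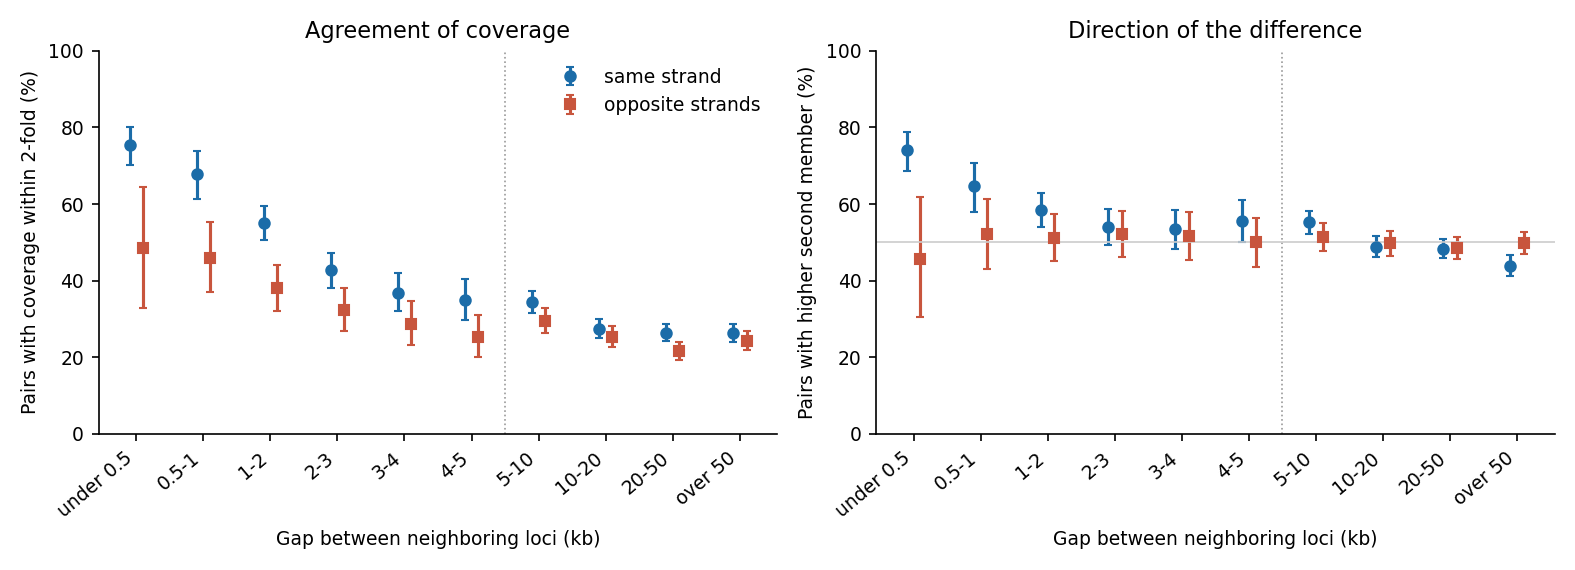
Left, pairs with coverage within 2-fold (%), and right, pairs in which the second member was higher (%; downstream for same-strand pairs, second along the scaffold for opposite strands), by gap (kb). On the right, the order of opposite-strand members is arbitrary, which puts their shares near 50% whatever the coverages. Circles are same-strand and squares opposite-strand pairs, bars are Wilson 95% intervals, the dotted line marks 5 kb and the gray line on the right 50%; same-strand pairs below 500 bp reached 75.5% on the left and 74.1% on the right.

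Some pairs joined very long models. On scaffold 6 a locus of 71 segments with an ORF of 11001 bp (6495947 to 6535563) was followed after 211 bp by a locus of 27 segments and 3639 bp (6535775 to 6545578), with coverages of 74.5 and 516. On the minus strand of scaffold 57, loci of 64 and 20 segments (55629 to 133733 and 23674 to 54662) lay 966 bp apart with coverages of 73.1 and 111. On scaffold 190, loci of 55 and 28 segments (574421 to 608879 and 611502 to 629841) lay 2622 bp apart with coverages of 249 and 89.7. Only the scaffold 57 members were within 2-fold.

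Tandem pairs joined into 1606 chains, of which 329 held at least 3 loci. These runs held 1116 loci, or 30.4% of all tandem loci, in 787 pairs. There were 244 chains of 3 loci, 61 of 4, 16 of 5 and 5 of 6, and 1 each of 9, 10 and 11. Longer chains were less covered, with a median coverage of 73.4 for loci in chains of 2, 26.3 in chains of at least 3 and 7.65 in the 24 chains of at least 5. All loci lay within a 4-fold range on the scale of log2(coverage + 2) in 158 of the 329 chains (48.0%). Weakly covered chains have little room to differ on this scale. No such share was taken for chains of other neighbors, so agreement along chains was not tested. The last transcribed locus was the best covered in 106 of the 244 chains of 3, the first in 72 and the middle in 66, with median coverages of 57.2, 38.9 and 32.7. The pairs of these chains are among those of the downstream comparison above, and no such counts were taken for other same-strand neighbors. A direction along chains was therefore not tested separately. A shared run of segment lengths was present in 3 of the 329 chains, which held 787 pairs. It was found in 0.242% of all tandem pairs and 0.221% of all non-overlapping adjacent pairs. Counts this small do not set the chains apart from other pairs.

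The longest chain lay on the minus strand of scaffold 90, with 11 loci and 134 coding segments between 300019 and 375675. In transcription order the first locus (360880 to 375675) had 10 segments and a coverage of 3.58, and the last (300019 to 329478) had 66 segments, an ORF of 10440 bp and a coverage of 18.1. The 9 loci between them had 4 to 9 segments and coverages of 3.02 to 9.14. The gaps were 191 to 2880 bp and the CDS summed to 23091 bp. All the loci were thus weakly covered, and the last transcribed had the highest value.

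The second chain, of 10 loci on the plus strand of scaffold 39 from 266230 to 311725, differed in its last member. The first 9 loci had coverages of 4.78 to 16.9, and the last (304194 to 311725, 11 segments) had 369 after a gap of 2939 bp. The third, of 9 loci on scaffold 9 from 1380172 to 1449581, was even throughout, with coverages of 3.85 to 8.74, gaps of 126 to 2428 bp and 79 segments in all. Its highest value was that of locus 4 in transcription order, and the last locus had 7.18. Another 5 chains had 6 loci. That with the most segments, 47 on scaffold 26 (3172101 to 3258069), again ended in a locus of much higher coverage, 280 after a gap of 3953 bp, while the other 5 had 4.29 to 17.0. The chains on scaffold 134 (2000270 to 2026236) and scaffold 162 (742051 to 774684) tied at 42 segments and had coverages of 5.44 to 11.5 and of 4.18 to 16.3. No shared run of at least 3 lengths was found in any of these 6 chains.

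**Figure D5:**
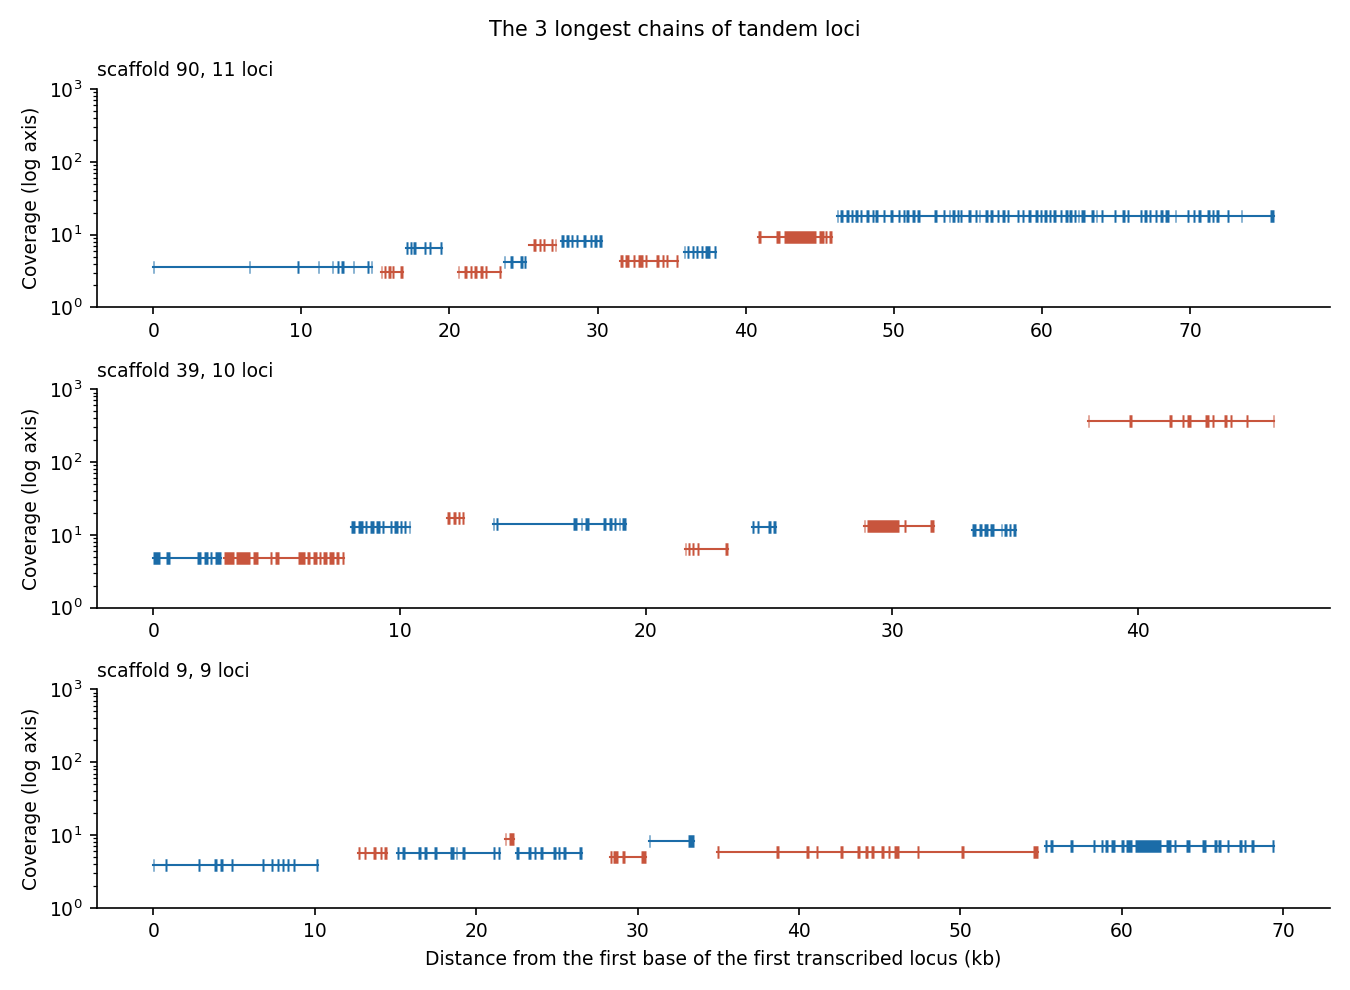
Loci of the 3 longest chains by distance from the first base of the first transcribed locus (kb, x axis) and coverage (log y axis); thick marks are coding segments, thin lines introns, and colors alternate between neighboring loci. Coverage stays under 20 in the chains of scaffolds 90 and 9, while the last locus on scaffold 39 reaches 369.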

How the data were processed

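RNA of 3 gonad libraries was analysed as 1 deposited annotation. Per the labels, the authors mapped reads with TopHat 1.3.3 and Bowtie 0.12.7 and assembled transcripts with Cufflinks 1.1.0 (versions from the submitters' processing notes). The paper's methods name a later Cufflinks release. Transcripts were trimmed by the authors to 1 ORF each, checked, per the paper's methods, with a hidden Markov model. The authors' file gives 75480 transcripts with coordinates, coverage and FPKM. Identifier prefixes divide the scaffolds into 171 groups, whose median ratio of coverage to FPKM differed up to 383-fold (within a group, the 95th percentile was typically 1.96 times the 5th). The deposited coverage signal was used, as log2(coverage + 2). The ratio alone does not show whether coverage itself is comparable between groups. Positions are 1-based on the authors' scaffolds.

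Python 3.11.15 (numpy 2.4.6, scipy 1.17.1) was used to define loci, pairs and shared runs, and matplotlib 3.10.9 to draw them. The shared-run search was run on simulated lists with planted runs of 3 equal lengths, which checks the code only. Copies with changed lengths were not simulated. Without replicates no test was run, and shares carry Wilson 95% intervals, and their differences Newcombe intervals. The members, lists and thresholds were chosen with earlier results of these data known. Named pairs followed a rule, namely the 10 longest shared runs, the 5 longest chains (ties by segments, with a chain that still tied added after its values were seen), and 3 each of the smallest and largest gaps, the pairs just outside 5 kb, most segments, highest smaller coverage and largest coverage difference. The downstream comparison and the split at a coverage of 20 were added after the values were seen. Gap, CDS minimum, representative, run length, pseudocount and unit were varied.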

Additional observations from a re-analysis of the deposited data

How the results depend on the processing

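Over 53 combinations of a result with an alternative setting, the gap limit mattered most. At 1, 2 and 10 kb there were 494, 959 and 3134 tandem pairs, 0, 2 and 11 shared runs, 35, 103 and 622 chains of at least 3 loci, and 72.3%, 63.9% and 44.9% of pairs within 2-fold. The downstream member was higher in 70.0% and 64.4% of pairs at 1 and 2 kb. A CDS of at least 600 bp left 1332 pairs, 180 chains and 47.6% within 2-fold. Shared runs numbered 19 with 2 equal lengths, 2 with 4, 10 without distinct lengths, and 11 each with lengths differing by 0 or 3 bases and with ordered common lengths in at least 50% of the shorter locus. Of these rules, only that of 2 equal lengths has a share of other pairs beside it, given above. The other counts therefore do not show more copies among tandem pairs than among other neighbors. The 2-fold share was 46.5% and 56.3% with pseudocounts of 0.1 and 10, 53.9% with summed coverage, 47.2% with FPKM, and, chosen after seeing the data, 47.9% with 1 pair per chain and 45.6% with both coverages of at least 20, where 56.8% had the downstream member higher. No alternative gave a joining transcript, a result that is largely built in, as said above, and so no sign of robustness. No paired analysis was possible because each gonad has 1 library and no value per library. For the same reason no replicate could be left out. Reads per library are unknown, so depth limits cannot be given beyond coverage.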

Other observations

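The longest shared runs of segment lengths between neighboring loci lay outside the tandem pairs under 5 kb. Most pairs lay outside too, as 2064 of the 12216 non-overlapping adjacent pairs were tandem. A run of at least 3 lengths was found in 0.242% of tandem and 0.221% of all these pairs, so the longest runs do not set the classes apart. On the minus strand of scaffold 98, loci of 22 segments each (3115880 to 3180118 and 3038365 to 3088119), 27760 bp apart, shared 10 consecutive lengths, with coverages of 8.10 upstream and 66.4 downstream. On scaffold 36, divergent loci of 14 segments each (241805 to 251107 and 265039 to 273384), 13931 bp apart, shared 8 lengths, with coverages of 1.17 and 5.17. Divergent loci on scaffold 46 (3279341 to 3282685 and 3297665 to 3314669) also shared 8, with 6.94 and 131. On the plus strand of scaffold 66, loci of 28 and 32 segments (2085806 to 2104774 and 2112772 to 2124069), 7997 bp apart, shared 8 lengths, most of them 63 bp, with coverages of 87.5 and 125.0. As said above of recurring lengths, such a run is a weaker sign of a copy. On scaffold 3, same-strand loci 138626 bp apart (9906268 to 9953718 and 10092345 to 10138074) shared 6, of 295, 120, 168, 188, 254 and 137 bp, and had coverages of 201 and 29.6. Of these 5 pairs only the members on scaffold 66 were within 2-fold. On the minus strand of scaffold 621, loci of 4 segments each (27887 to 28931 and 6256 to 8391) had all lengths equal, 102, 147, 126 and 156 bp, with coverages of 3858 and 32396. The same run of 69, 44, 66 and 67 bp was found in same-strand pairs on scaffold 29 (47027 to 52630 and 37641 to 40052, 6974 bp apart) and on scaffold 174 (1530073 to 1536270 and 1520592 to 1523075, 6997 bp apart), in loci of 5 segments each. These pairs were chosen after their values were seen.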
